A study of Mus musculus with 8 samples.

Results

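The serpin gene family was examined in mouse kidney tubuloids with and without a pulse of glial-derived neurotrophic factor (GDNF). Members were chosen by gene symbol (Serpin, a clade letter from a to i, a number and an optional letter), which gave 62 genes of the 24063 symbols listed in the tables, with 80 of 33068 transcripts. The family was taken up with the difference of *Serpinb9* between the groups already known, so the values that compare the groups are descriptive and are not independent evidence of a GDNF response. Clade A held 24 members, clade B 27, clade E 3, clades F and I 2 each, and clades C, D, G and H 1 each. One further symbol of this name type, the pseudogene *Serpina4-ps1*, was not matched by the rule.

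Tubuloids are 3D structures grown in Matrigel, a basement membrane gel, from tubule fragments of whole kidneys of mice whose age the labels give as postnatal day 7 to 10, while the study's text also names younger mice. All 8 cultures carried the genotype Pkd2fl/fl Pax8rtTA TetOCre mTmG, that is, a floxed *Pkd2* gene, a Cre recombinase that doxycycline can switch on through a transactivator driven by the renal epithelial *Pax8* promoter, and a membrane colour reporter. The labels name no doxycycline for these cultures. The 4 GDNF cultures (numbers 6, 12, 17 and 22) received GDNF in medium enriched with hepatocyte, epidermal and fibroblast growth factors for 24 h, and the 4 controls (numbers 3, 7, 14 and 21) received the same medium without it. All were collected on culture day 7, and the study asked how the pulse alters gene expression. The cultures contain non-epithelial structures as well as tubuloids, and each library measures a whole culture.

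Serpins share a fold in which an exposed loop acts as bait for a protease. When the protease cuts the loop, most serpins snap into a new shape and trap the enzyme in a complex that cannot be released. Clade B serpins lack a classical secretion signal and act mainly inside cells against enzymes such as granzymes, cathepsins and leukocyte elastases. Most members of the other clades are secreted. They control blood clotting, plasminogen activation and complement, and a few have lost protease inhibition and serve as hormone carriers, matrix-linked factors or, for *Serpinh1*, a collagen chaperone of the endoplasmic reticulum.

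Total counts ranged from 72991721 to 97490625 per culture, and counting error was therefore small for the members described in full. All 6 tubule epithelium markers averaged at least 1 CPM (counts scaled to library size with a composition correction), as did all 7 stromal markers, whereas only 1 of 4 proximal tubule markers did. In control cultures 3, 7, 14 and 21 the composition (TMM) factors were 0.79, 0.982, 0.963 and 0.982. In GDNF cultures 6, 12, 17 and 22 they were 1.07, 1.08, 1.07 and 1.11. Every control factor was thus below every GDNF factor, so the correction lowered CPM in the GDNF cultures relative to the controls. *Xist* exceeded the Y-linked genes in controls 3 and 7 and in cultures 6 and 12 of the GDNF group, and the reverse held in the other cultures. By this rule both kinds were present in equal number in the groups. The split was not complete. Control culture 3 and GDNF culture 6 also had some Y-linked RNA, at 1.5 and 6.46 TPM, a relative abundance explained below. The cultures of the other kind had 116 to 194 TPM.

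*Serpinb9* and *Serpinb9b*, *Serpinb6a* and *Serpinb6b*, and *Serpina3g* and *Serpina3f* are close copies, and the sequences below show how far a read of 75 bases can separate them. Each is the coding window in which the pair differs least, read 5′ to 3′ from the GENCODE release M21 transcript. Capitals mark the bases that differ. The *Serpinb9* window lies in exon 2 at chr13:33006548-33006622 of build GRCm38 (plus strand) and the *Serpinb9b* window in exon 2 at chr13:33029467-33029541 (plus strand).
Serpinb9: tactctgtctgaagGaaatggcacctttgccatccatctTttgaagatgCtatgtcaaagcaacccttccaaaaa
Serpinb9b: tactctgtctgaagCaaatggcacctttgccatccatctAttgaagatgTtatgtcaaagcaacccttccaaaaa
The *Serpinb6a* window lies in exon 5 at chr13:33925315-33925389 (minus strand) and the *Serpinb6b* window in exon 4 at chr13:32972287-32972361 (plus strand).
Serpinb6a: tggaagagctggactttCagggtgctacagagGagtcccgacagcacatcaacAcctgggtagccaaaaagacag
Serpinb6b: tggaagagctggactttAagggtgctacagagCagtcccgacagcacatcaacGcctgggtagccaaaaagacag
The *Serpina3g* window lies in exon 3 at chr12:104239145-104239219 (plus strand) and the *Serpina3f* window in exon 4 at chr12:104218316-104218390 (plus strand).
Serpina3g: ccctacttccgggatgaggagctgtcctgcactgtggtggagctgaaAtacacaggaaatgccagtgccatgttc
Serpina3f: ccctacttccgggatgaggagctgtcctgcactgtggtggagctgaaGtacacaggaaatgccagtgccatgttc

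The coding sequences of *Serpinb9* and *Serpinb9b* were identical at 86.4% of aligned bases, and those of *Serpinb6a* and *Serpinb6b* at 86.3%. The least different window of both pairs still held 3 differences. Across the whole transcripts, none of the 3323 windows of 75 bases in *Serpinb9*, the 3179 in *Serpinb9b*, the 1430 in *Serpinb6a* or the 2119 in *Serpinb6b* occurred in a transcript of another gene. A single transcript of each gene was scanned, although the counts of *Serpinb6a* are summed over 4. Within the transcripts scanned, no exact window of these 4 clade B genes was thus shared on the same strand. How reads with mismatches were assigned is not given in the sources used here. *Serpinb9b* and *Serpinb6a* also overlap genes on the opposite strand, as described with each. The clade A group is less separable. For *Serpina3g*, 154 of 1729 windows (8.91%) were shared with *Serpina3h*, *Serpina3i*, *Serpina3f* and other copies, and the shares were 5.61% for *Serpina3f*, 6.87% for *Serpina3i* and 12.8% for *Serpina3h*. Sharing was larger still for *Serpina1a* (57.5%), *Serpinb9f* (65.5%) and *Serpinb9g* (44.9%), so counts of these are uncertain. None was found in the transcripts scanned for *Serpinh1*, *Serpine2*, *Serpinf1* or *Serping1*, and the counts of *Serpinh1* are also summed over 4 transcripts.

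Of the 62 members, 50 had at least 1 count in some culture. The 12 without a count were *Serpina11*, *Serpina1d*, *Serpina1f*, *Serpina3j*, *Serpina3k*, *Serpina3m*, *Serpina5*, *Serpinb3a*, *Serpinb3b*, *Serpinb3c*, *Serpinb9d* and *Serpini2*. A further 25 had counts but did not pass the filter on low counts, with no more than 66 counts in any culture. They were *Serpina1b*, *Serpina1c*, *Serpina1e*, *Serpina3a*, *Serpina3b*, *Serpina3c*, *Serpina6*, *Serpina9*, *Serpina12*, *Serpinb1b*, *Serpinb1c*, *Serpinb3d*, *Serpinb6c*, *Serpinb6d*, *Serpinb6e*, *Serpinb7*, *Serpinb9c*, *Serpinb9e*, *Serpinb9f*, *Serpinb9g*, *Serpinb10*, *Serpinb11*, *Serpinb12*, *Serpinb13* and *Serpinf2*. The filter left 25 members for testing, of which 19 averaged at least 1 CPM. Many of the genes at or near 0 encode plasma proteins of the liver, such as antitrypsin-type clade A serpins and the antiplasmin *Serpinf2*, or serpins of skin and other surface epithelia on chromosome 1.

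Levels of different genes are compared in TPM, a relative transcript abundance that corrects for transcript length, using the most counted transcript of each gene. *Serpinh1*, the collagen chaperone, had the highest mean at 287 TPM. *Serpine2*, a secreted and matrix-bound inhibitor of thrombin and plasminogen activators also called protease nexin, averaged 237 TPM, and *Serpinb6a*, a cytosolic inhibitor of trypsin-like proteases and cathepsin G, averaged 117 TPM. Summed over its 4 transcripts, which share reads, *Serpinb6a* stood at 451 TPM and above *Serpine2*, so the order of these 2 genes depends on the choice of transcript. Next in order were the pigment epithelium-derived factor gene *Serpinf1* at 94.3 TPM, the complement inhibitor gene *Serping1* at 49.5 TPM, *Serpina3g* at 48.5 TPM and the granzyme B inhibitor gene *Serpinb9* at 26.8 TPM. The 11 lowest genes with at least 1 CPM averaged between 0.775 TPM (*Serpina3f*) and 9.04 TPM (*Serpinb6b*). Neighbours in this order overlapped widely. *Serpinh1* ranged over the cultures from 173 to 540 TPM and *Serpine2* from 170 to 303 TPM, and *Serping1* (23.0 to 85.0 TPM) and *Serpina3g* (34.0 to 71.9 TPM) could not be ordered. *Serpinb6a*, at 87.4 to 151 TPM, had its lowest value above the highest of *Serping1* and *Serpina3g*.

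**Figure D1:**
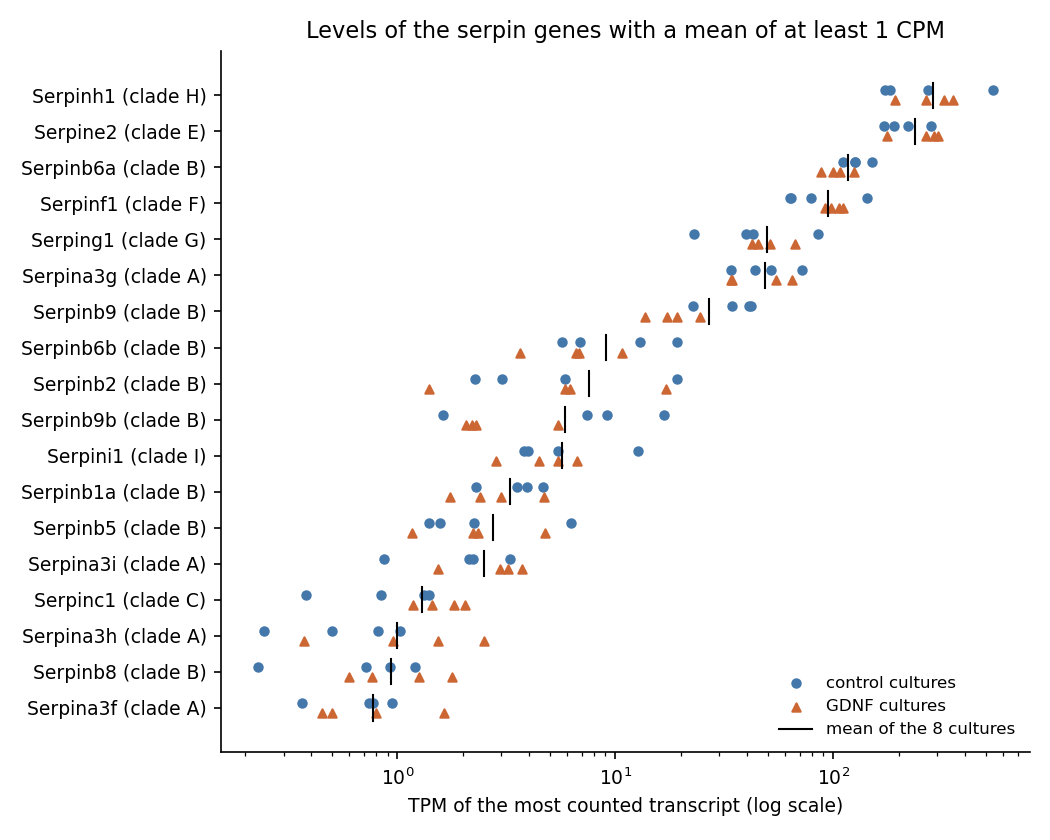
TPM of the most counted transcript (log scale) of 18 of the 19 serpin genes with a mean of at least 1 CPM, ordered by mean. Circles are the 4 control cultures, triangles the 4 GDNF cultures and black lines the mean of all 8. *Serpinh1* and *Serpine2* lead at means of 287 and 237 TPM, and all drawn genes below *Serpinb9* stay under 20 TPM.

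Summed over the family, serpin transcripts made up between 710.0 TPM (control culture 3) and 1287.5 TPM (control culture 14). *Serpinh1* supplied 22.6% to 41.9% of that sum, *Serpine2* 13.2% to 37.4%, *Serpinb6a* 10.3% to 17.8% and *Serpinf1* 8.28% to 13.1%. The clade B share was 29.0%, 16.8%, 18.5% and 26.1% in control cultures 3, 7, 14 and 21, and 14.4%, 14.2%, 18.8% and 16.2% in GDNF cultures 6, 12, 17 and 22. The clade B share was thus highest in control cultures 3 and 21, while control cultures 7 and 14 lay within the range of the GDNF cultures.

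Between the groups, none of the 25 members tested reached an adjusted p of 0.05 (edgeR's quasi-likelihood test, p-values adjusted by Benjamini-Hochberg over all genes), and their lowest adjusted p was 0.167. The same was true of all 16557 genes tested (0% called). At an unadjusted p of 0.05, 4 members were lower in the GDNF cultures (*Serpinb9*, *Serpinb6a*, *Serpinb9b* and *Serpinb6b*) and 0 were higher, where 12.9% of all genes tested were lower and 9.25% higher. With DESeq2, the tool used in the study, *Serpinb9* and *Serpinb6a* passed an adjusted p of 0.05, at 0.00281 and 0.0183, and no member passed in the higher direction. By that tool 12.4% of the 9170 genes with an adjusted p were called lower and 2.3% higher, and 16 of the 25 members had no adjusted p. The groups did not overlap in normalized CPM for 2 of the 25 members tested, *Serpinb9* and *Serpinb6a*, both lower. Of all genes tested, 6.26% were lower without overlap and 6.99% higher. The counts of members lower in the GDNF cultures were small, and since the comparison led to the choice of the family, nothing is read from their share beside these backgrounds.

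The log2 fold change was negative for 16 of the 25 members and positive for 9, with a median of -0.21, beside a median of 0.03 and 47.5% negative among all genes tested. With library size as the only scaling, the median of all genes was 0.25 and that of the members 0.03. Clade B had 7 of 8 negative and a median of -0.72. Clade A had 3 of 8 negative and a median of 0.26. These medians cover only members that passed the filter.

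**Figure D2:**
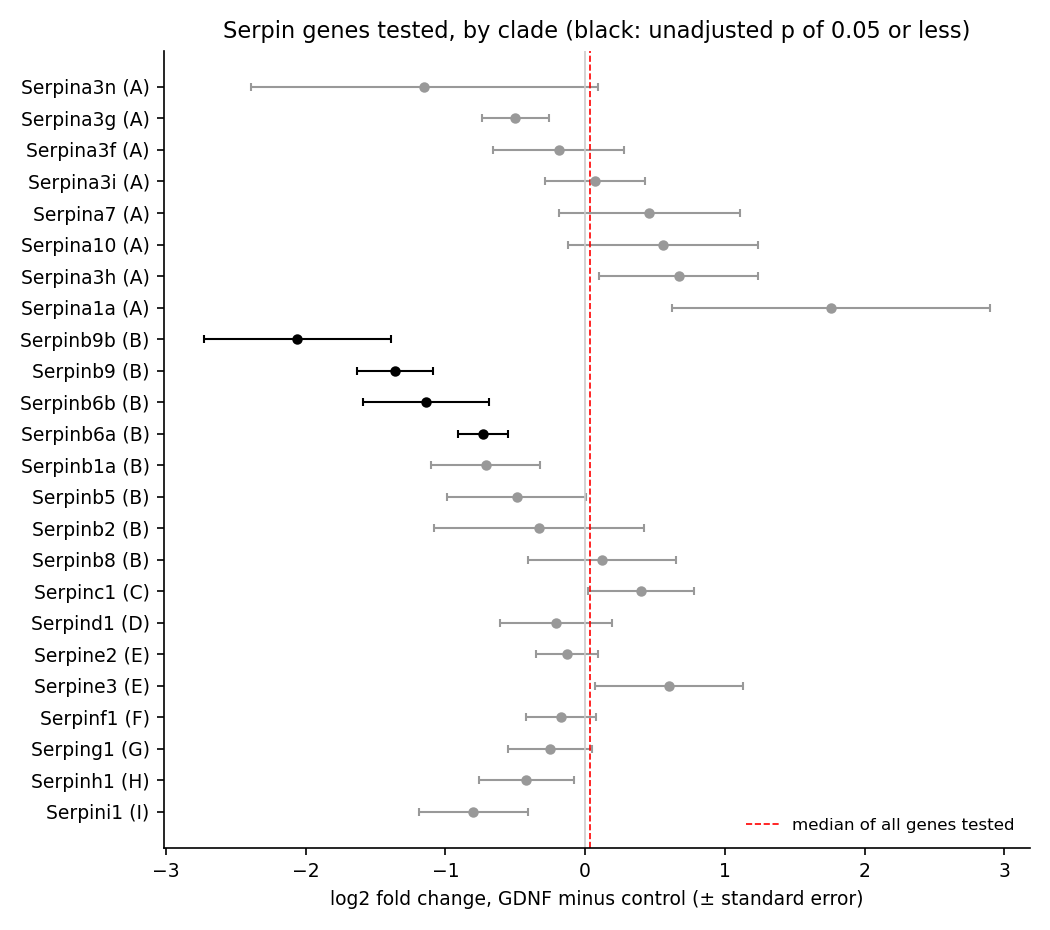
Log2 fold change (GDNF minus control, with its standard error) of 24 of the 25 serpin genes tested, grouped by clade, with black points for an unadjusted p of 0.05 or less and a dashed line at the median of all genes tested. The 4 black points are *Serpinb9*, *Serpinb9b*, *Serpinb6b* and *Serpinb6a*, all in clade B and all below 0.

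The clade B genes lie in 2 clusters. On chromosome 13, 15 members fall between 32842092 and 34002794 (GRCm38), and 5 of them were tested. All 5 had a negative log2 fold change, with a median of -1.14, and 4 of them are the members at an unadjusted p of 0.05. The other 10 genes of the cluster, among them *Serpinb9c* to *Serpinb9g* and *Serpinb6c* to *Serpinb6e*, had at most 22 counts in any culture. The expressed genes were thus *Serpinb1a*, *Serpinb6b*, *Serpinb9* and *Serpinb9b* at one end and *Serpinb6a* at the other.

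*Serpinb9* (chr13, 32997061 to 33017955) encodes the cytosolic inhibitor of granzyme B, the protease with which cytotoxic lymphocytes trigger death of their target cells. Its normalized level was 120, 47.8, 72.5 and 82.7 CPM in control cultures 3, 7, 14 and 21, and 24.7, 29.3, 41.6 and 30.6 CPM in GDNF cultures 6, 12, 17 and 22. Every control culture was above every GDNF culture, with the nearest values in control culture 7 and GDNF culture 17. The means were 80.8 ± 30.1 CPM in controls and 31.6 ± 7.16 CPM after GDNF (SD, n = 4 each). On the log2 scale the change was -1.36 (SE 0.27), with an unadjusted p of 0.000565 and an adjusted p of 0.167 (edgeR's quasi-likelihood test). In deposited TPM, which has no composition correction, the nearest values crossed, at 22.6 TPM in control culture 7 and 24.5 TPM in GDNF culture 17. In a whole culture, fewer cells that express a gene and less RNA of it per cell cannot be told apart.

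*Serpinb9b* (chr13, 33027414 to 33040588), the neighbouring copy, was at 27.6, 1.93, 8.92 and 10.2 CPM in control cultures 3, 7, 14 and 21, and at 2.36, 2.12, 5.28 and 1.88 CPM in GDNF cultures 6, 12, 17 and 22. Control culture 3 was far above the rest and control culture 7 lay among the GDNF cultures, so the groups overlapped. The means were 12.2 ± 10.9 and 2.91 ± 1.59 CPM (SD, n = 4 each), and the log2 fold change was -2.06 (SE 0.67, edgeR's quasi-likelihood test, adjusted p = 0.167). Without control culture 3 the log2 fold change was -1.27 and the unadjusted p no longer reached 0.05. Of its exonic bases, 256 (7.87%) overlap a gene on the opposite strand, *Gm36099*, and reads from both cannot be told apart without strand.

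*Serpinb6a* (chr13, 33917918 to 34002794) was the most abundant clade B gene. It stood at 652, 414, 563 and 436 CPM in control cultures 3, 7, 14 and 21, and at 276, 296, 368 and 301 CPM in GDNF cultures 6, 12, 17 and 22. The groups did not overlap, and again control culture 7 and GDNF culture 17 were nearest. The means were 516 ± 112 and 310 ± 40.2 CPM (SD, n = 4 each), and the log2 fold change was -0.73 (SE 0.18, edgeR's quasi-likelihood test, adjusted p = 0.167), with an unadjusted p of 0.00252. These counts are summed over 4 transcripts, in which a shared read is counted more than once. In TPM of the most counted transcript the groups overlapped, with 111 TPM in control culture 7 and 124 TPM in GDNF culture 17. In the single transcript examined, its exons overlap those of *Ripk1* on the opposite strand over 37 bases (2.46%). *Ripk1* itself had a log2 fold change of 0.08.

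*Serpinb6b* (chr13, 32956811 to 32979067), a close relative of *Serpinb6a* at the other end of the cluster, was at 20.6, 6.58, 22.1 and 7.37 CPM in control cultures 3, 7, 14 and 21, and at 3.61, 6.15, 9.99 and 5.98 CPM in GDNF cultures 6, 12, 17 and 22. Controls 3 and 14 were high, and controls 7 and 21 fell within the range of the GDNF cultures. The log2 fold change was -1.14 (SE 0.45, edgeR's quasi-likelihood test, adjusted p = 0.194), with an unadjusted p of 0.0309 that did not remain under 0.05 without control culture 3, control culture 14, or GDNF culture 6, 12 or 22. *Serpinb1a*, a cytosolic inhibitor of neutrophil elastase, ranged from 2.55 to 6.47 CPM in controls and from 1.67 to 4.83 CPM after GDNF, with a log2 fold change of -0.71 (SE 0.39, edgeR's quasi-likelihood test, adjusted p = 0.302).

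**Figure D3:**
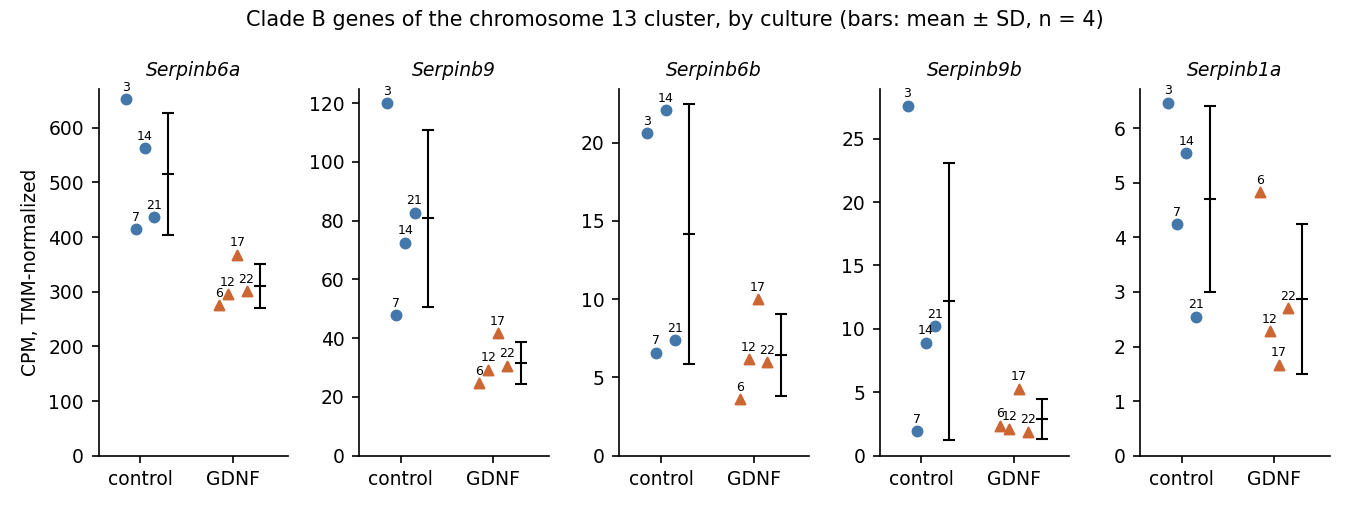
Normalized CPM by culture for the 5 clade B genes tested in the chromosome 13 cluster, each on its own linear axis, with points numbered by culture and bars for the mean ± SD (n = 4). The groups are separate for *Serpinb9* and *Serpinb6a* and overlap for *Serpinb9b*, *Serpinb6b* and *Serpinb1a*.

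Within the cultures with *Xist*, the log2 ratio of the group means was -1.64 for *Serpinb9* and -0.90 for *Serpinb6a*, and within the cultures with Y-linked RNA it was -1.10 and -0.58. Since neither gene overlapped over all cultures, the absence of overlap within a kind adds nothing. For *Serpinb9b* the ratios were -2.72 and -1.41, and for *Serpinb6b* -1.48 and -0.88, and each of these genes overlapped in one kind. With 2 against 2 cultures per kind, these values carry no test.

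Granzyme B inhibition is best known in lymphocytes and other leukocytes. The 11 leukocyte markers summed to 9.26 to 30.1 CPM in controls and 11.6 to 32.0 CPM in GDNF cultures, 4 of the 11 averaged at least 1 CPM, and *Cd3e* was at 0 in all cultures. None of the 5 leukocyte markers tested had an unadjusted p of 0.05 or less in edgeR, beside shares of 12.9% lower and 9.25% higher over all genes. With so few markers, nothing is read from that count. The 6 tubule epithelium markers summed to 3004.6, 1143.2, 445.0 and 3318.5 CPM in control cultures 3, 7, 14 and 21, and to 1655.2, 1070.3, 908.0 and 903.0 CPM in GDNF cultures 6, 12, 17 and 22. One of the 6, the keratin gene *Krt8*, had an unadjusted p under 0.05 in edgeR, beside the same shares over all genes. Its log2 fold change was -1.45 (SE 0.63). The 2 keratin genes of the list, *Krt8* and *Krt18*, made up 70.4% and 76.3% of the sum in control cultures 3 and 21, and 39.3% to 61.2% in the other cultures. The 4 other markers alone, split off after the values were seen, summed to 888, 577, 217 and 787 CPM in the controls and to 1004.5, 588, 352 and 452 CPM in the GDNF cultures. Among these 4, *Cdh16* (0.32, SE 0.53) and *Pax8* (0.05, SE 0.34) had log2 fold changes above 0. Those of *Epcam* (-0.54, SE 0.40) and *Cdh1* (-0.28, SE 0.47) were below 0. The part of epithelial content in the values of the clade B serpin genes was not tested.

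The genes around the cluster were examined after the values of the members had been seen. Within 500000 bases of its ends or inside it, 11 other genes are listed and 10 were tested, with log2 fold changes between -1.20 and 0.12 and a median of -0.42. At an unadjusted p of 0.05, 5 of the 10 were lower (*1110046J04Rik*, *Nqo2*, *Bphl*, *Tubb2b* and *Psmg4*) and 0 were higher, beside the shares of 12.9% and 9.25% over all genes. *Nqo2*, a quinone reductase gene that lies within the span of *Serpinb6a*, averaged 153 ± 16.8 CPM in controls and 112 ± 11.2 CPM after GDNF (SD, n = 4 each), with a log2 fold change of -0.46 (SE 0.14, edgeR's quasi-likelihood test, adjusted p = 0.167). *Serpinb6a* was accordingly not the only gene of that stretch with lower values. *Ripk1*, the next gene, was at 0.08 (SE 0.16), the genes after it from *Bphl* to *Psmg4* were all below 0, and *Slc22a23* beyond them was at 0.12 (SE 0.42).

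**Figure D4:**
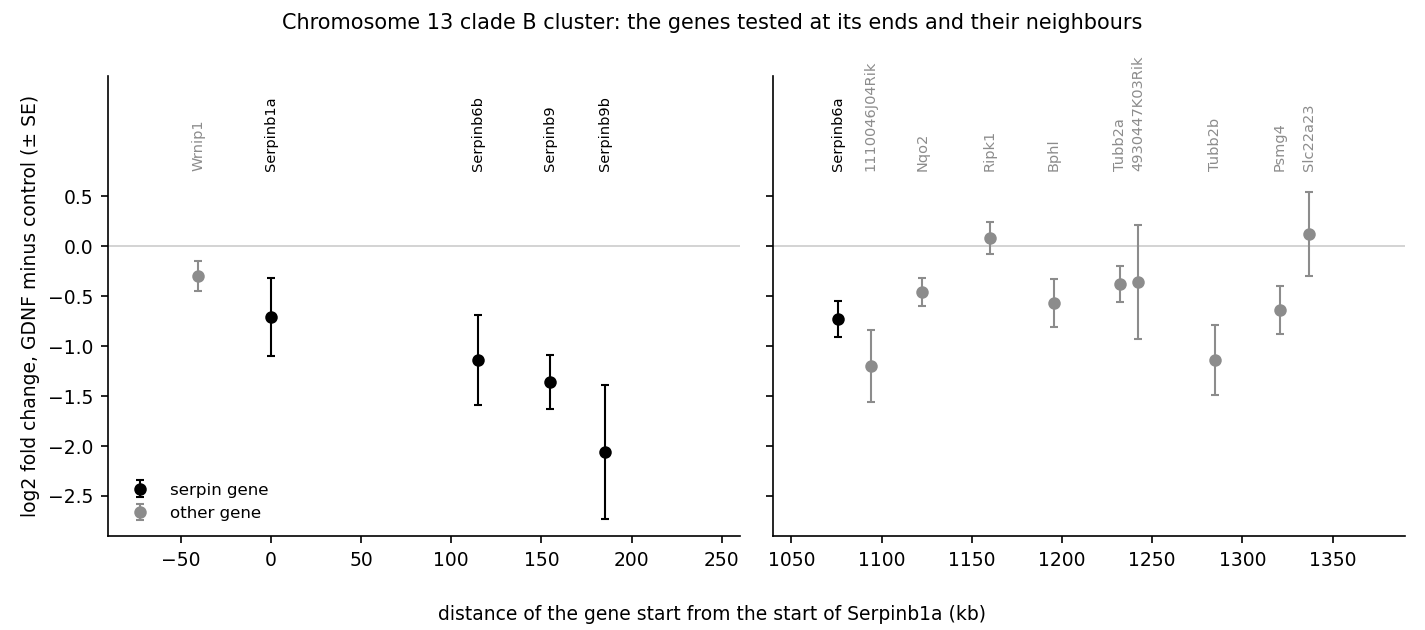
Log2 fold change (GDNF minus control, with its standard error) of the genes tested in and around the chromosome 13 clade B cluster, against the distance of each gene's start from the start of *Serpinb1a* in kb. The untested stretch between the 2 panels is left out. All 5 serpin genes (black) lie below 0, as do 8 of the 10 other genes (grey).

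On chromosome 1, 12 clade B members fall between 106861175 and 107608978, and 3 were tested. The tested genes had a median log2 fold change of -0.33 and none had an unadjusted p of 0.05 or less. *Serpinb2*, an inhibitor of urokinase, was at 7.63, 7.48, 46.8 and 13.3 CPM in control cultures 3, 7, 14 and 21, and at 2.93, 11.6, 33.7 and 11.5 CPM in GDNF cultures 6, 12, 17 and 22. One culture of each group, control 14 and GDNF 17, stood well above the others, and the log2 fold change was -0.33 (SE 0.75). *Serpinb5*, the maspin gene, which encodes a serpin without protease inhibition, had a log2 fold change of -0.49 (SE 0.50). *Serpinb8*, an inhibitor of furin-type proteases, had one of 0.12 (SE 0.53). The untested members of this cluster had at most 66 counts in a culture.

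Of the clade A genes, 23 of 24 lie between 103616675 and 104414334 on chromosome 12, and the thyroxine-binding globulin gene *Serpina7* lies on chromosome X. *Serpina3g* (chr12, 104236147 to 104241939), an intracellular inhibitor of lysosomal cathepsins, was the only clade A gene with a mean above 5 CPM. It stood at 58.8, 65.2, 90.4 and 50.9 CPM in control cultures 3, 7, 14 and 21, and at 36.7, 34.7, 55.2 and 61.4 CPM in GDNF cultures 6, 12, 17 and 22. GDNF cultures 6 and 12 were below all controls, and GDNF cultures 17 and 22 lay among them. The means were 66.3 ± 17.1 and 47.0 ± 13.3 CPM (SD, n = 4 each), and the log2 fold change was -0.50 (SE 0.24, edgeR's quasi-likelihood test, adjusted p = 0.25). GDNF cultures 6 and 12 are the GDNF cultures with *Xist*, and the log2 ratio of means was -0.80 within that kind and -0.28 within the other.

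Its close copies were far lower, and part of their counts may belong to *Serpina3g*. *Serpina3i* averaged 2.97 CPM in controls and 3.12 CPM after GDNF, *Serpina3f* 3.18 and 2.80 CPM, and *Serpina3h* 0.844 and 1.35 CPM, with log2 fold changes of 0.07 (SE 0.36), -0.19 (SE 0.47) and 0.67 (SE 0.57). The groups overlapped for all 3 copies. *Serpina1a*, *Serpina3n*, *Serpina7* and *Serpina10* were tested but averaged under 1 CPM, with log2 fold changes from -1.15 (*Serpina3n*, SE 1.24) to 1.76 (*Serpina1a*, SE 1.14).

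The extracellular and secretory pathway serpins *Serpinh1*, *Serpinf1*, *Serping1* and *Serpine2* had overlapping groups in every case. *Serpinh1* (chr7, 99345375 to 99353239), which assists collagen folding, was at 1490.9, 1622.5, 3223.2 and 959 CPM in control cultures 3, 7, 14 and 21, and at 985, 1537.9, 1702.6 and 1211 CPM in GDNF cultures 6, 12, 17 and 22. Control culture 14 exceeded all other cultures, and the remaining values of the groups interleaved. The log2 fold change was -0.42 (SE 0.34, edgeR's quasi-likelihood test, adjusted p = 0.475), and without control culture 14 it was 0.00. These counts, too, are sums over 4 transcripts.

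*Serpinf1* (chr11, 75410029 to 75422623), the gene of a secreted factor that limits vessel growth, was at 81.8, 73.6, 132 and 54.7 CPM in control cultures 3, 7, 14 and 21, and at 84.9, 72.6, 83.3 and 64.6 CPM in GDNF cultures 6, 12, 17 and 22. *Serping1* (chr2, 84765360 to 84775444), the inhibitor of the proteases that start the classical complement pathway, was at 35.8, 48.7, 96.3 and 41.8 CPM in the same controls and at 41.2, 40.9, 61.0 and 44.1 CPM in the same GDNF cultures. Both genes were highest in control culture 14, and both groups overlapped. The log2 fold changes were -0.17 (SE 0.25) and -0.25 (SE 0.30), with adjusted p of 0.715 and 0.641 in edgeR's quasi-likelihood test. Without control culture 14 they were 0.12 and 0.15.

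The 7 stromal markers, which include fibroblast collagens and *Pdgfra*, summed to 552.0, 1366.2, 3374.5 and 1209.3 CPM in control cultures 3, 7, 14 and 21, and to 464.0, 2084.8, 2409.3 and 1461.5 CPM in GDNF cultures 6, 12, 17 and 22. Control culture 14 was thus the highest both in this sum and in *Serpinh1*, *Serpinf1* and *Serping1*. In the GDNF cultures, *Serpinh1* rose with the sum, from 985 CPM (culture 6) through 1211 (culture 22) and 1537.9 (culture 12) to 1702.6 CPM (culture 17). Among the controls, culture 3 was lowest in the sum and culture 21 in *Serpinh1* (959 CPM). GDNF culture 17 was the highest of its group in both the sum and *Serping1* (61.0 CPM). In other respects *Serpinf1* and *Serping1* did not keep the order of the sum. GDNF culture 6 was lowest in the sum, but its *Serpinf1* (84.9 CPM) was the highest of the GDNF cultures. GDNF culture 12, at 2084.8 CPM in the sum, was the lowest of the GDNF cultures in *Serping1* (40.9 CPM). Only 1 of the 7 stromal markers, *Lum*, had an unadjusted p of 0.05 or less in edgeR, beside shares of 12.9% lower and 9.25% higher over all genes. *Lum* was lower after GDNF without overlap (log2 fold change -1.30, SE 0.37, DESeq2 adjusted p = 0.022). The log2 fold changes of the 7 ranged from -1.34 (*Dcn*, SE 1.06) to 0.43 (*Col1a1*, SE 0.73). The part of stromal content in the levels of *Serpinh1*, *Serpinf1* and *Serping1* was not tested.

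**Figure D5:**
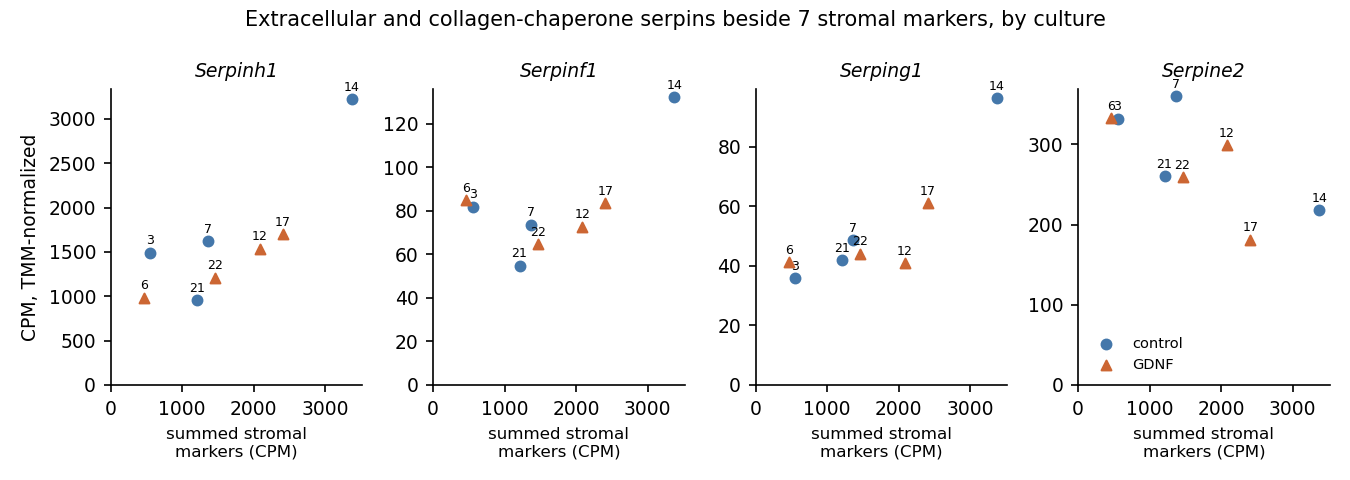
Normalized CPM of *Serpinh1*, *Serpinf1*, *Serping1* and *Serpine2* against the summed CPM of 7 stromal markers, 1 point per culture, with both axes linear and starting at 0. Control culture 14, at a stromal sum of 3374.5 CPM, is the highest point for *Serpinh1*, *Serpinf1* and *Serping1* but not for *Serpine2*, where it is at 218 CPM. GDNF culture 6, at the lowest sum of 464.0 CPM, is at 84.9 CPM for *Serpinf1*.

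*Serpine2* (chr1, 79794317 to 79858665) was at 332, 360, 218 and 260 CPM in control cultures 3, 7, 14 and 21, and at 333, 299, 181 and 259 CPM in GDNF cultures 6, 12, 17 and 22. Control culture 14 and GDNF culture 17, the highest of their groups in *Serpinh1* and *Serping1*, were the lowest of their groups in *Serpine2*. The cultures with *Xist* had higher values than the others of both groups, with means of 346 CPM in controls and 316 CPM after GDNF, against 239 and 220 CPM in the cultures with Y-linked RNA. The log2 fold change between the groups was -0.13 (SE 0.22, edgeR's quasi-likelihood test, adjusted p = 0.764), and with library size only it was 0.10.

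The secreted members named next were low. *Serpini1*, the neuroserpin gene, whose product inhibits tissue-type plasminogen activator, ranged from 7.19 to 24.7 CPM in controls and from 4.76 to 10.4 CPM after GDNF, with a log2 fold change of -0.80 (SE 0.39, edgeR's quasi-likelihood test, adjusted p = 0.248). *Serpinc1*, the antithrombin gene, averaged 1.34 CPM in controls and 1.77 CPM after GDNF, with a log2 fold change of 0.40 (SE 0.38). *Serpind1*, the heparin cofactor gene, and *Serpine3* averaged under 1 CPM, with log2 fold changes of -0.21 (SE 0.40) and 0.60 (SE 0.53).

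The proteases and partners of serpins were taken from a list of 62 genes arranged by function, of which 61 were found and 47 tested. At an unadjusted p of 0.05, 13 were lower in the GDNF cultures and 1 was higher, and none passed an adjusted p of 0.05 in edgeR. With DESeq2, which gave an adjusted p for 38 of the 47, 7 were lower and 1 was higher at an adjusted p of 0.05. These were *Plau*, *Plgrkt*, *Anxa2*, *S100a10*, *Thbd*, *P4hb* and *Ppib*, and *Masp2* in the higher direction, with DESeq2 adjusted p between 0.0258 (*Plgrkt*) and 0.0418 (*S100a10*). The median log2 fold change was -0.33, and 32 of the 47 were negative. The background shares of 12.9% lower and 9.25% higher (edgeR, unadjusted) and of 12.4% lower and 2.3% higher (DESeq2, adjusted) apply here too.

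In plasminogen activation, the pathway that *Serpine2*, *Serpinb2* and *Serpini1* restrain, 5 of 9 genes tested were lower at an unadjusted p of 0.05 and 0 were higher. They were the urokinase gene *Plau*, the plasminogen receptor genes *Plgrkt*, *Anxa2* and *S100a10*, and the thrombomodulin gene *Thbd*. *Plau* averaged 25.5 ± 22.6 CPM in controls and 8.69 ± 3.38 CPM after GDNF (SD, n = 4 each), with a log2 fold change of -1.55 (SE 0.60, edgeR's quasi-likelihood test, adjusted p = 0.19). Control cultures 3 and 21 were at 31.1 and 55.1 CPM. Control cultures 7 and 14, at 7.34 and 8.28 CPM, lay within the GDNF range of 5.97 to 13.6 CPM. *Anxa2* averaged 701 ± 224 and 428 ± 38.6 CPM and *S100a10* 692 ± 308 and 405 ± 53.4 CPM, and both had overlapping groups. *Plgrkt* was the one gene of the 5 without overlap, at 34.7 ± 5.43 and 24.3 ± 1.35 CPM. The tissue-type activator gene *Plat* ranged from 233 to 375 CPM in controls and from 196 to 286 CPM after GDNF, and *Plg*, the gene of plasminogen itself, was at 0 in all cultures.

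Of the granzyme genes, *Gzma* was at 0 in all cultures, and *Gzmb*, which encodes the protease that *Serpinb9* inhibits, reached no more than 0.162 CPM. The apoptosis initiator gene *Casp8* averaged 185 ± 65.4 CPM in controls and 128 ± 10.0 CPM after GDNF, with a log2 fold change of -0.53 (SE 0.23, edgeR's quasi-likelihood test, adjusted p = 0.22). Its groups overlapped, with control cultures 7 and 14 at 137 and 123 CPM and the GDNF cultures at 118 to 138 CPM. Of the cysteine cathepsins, lysosomal proteases that *Serpina3g* can inhibit, 3 of 4 tested were lower at an unadjusted p of 0.05, with log2 fold changes of -0.54 for *Ctsb*, -0.73 for *Ctsh* and -0.85 for *Ctsk*. Their groups overlapped in each case.

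Among the coagulation genes, 1 of 5 tested was lower at an unadjusted p of 0.05. It was the protein C receptor gene *Procr* (log2 fold change -0.89, SE 0.39), whose groups overlapped. Among the neutrophil and membrane serine proteases, 1 of 6 tested was lower at that p. It was the secreted protease gene *Htra1* (-0.70, SE 0.29), whose groups did not overlap. The 1 partner with higher values was *Masp2*, a protease gene of the lectin complement pathway that *Serping1* restrains. It averaged 9.97 ± 3.50 CPM in controls and 19.5 ± 2.77 CPM after GDNF without overlap (log2 fold change 0.97, SE 0.26, edgeR's quasi-likelihood test, adjusted p = 0.167).

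Of the 15 genes that work with *Serpinh1* in collagen folding, 2 were lower at an unadjusted p of 0.05 and 0 were higher, with a median log2 fold change of -0.15. *P4hb*, a subunit of prolyl hydroxylase and protein disulfide isomerase, averaged 941 ± 403 and 535 ± 58.5 CPM, and *Ppib*, a prolyl isomerase of the collagen folding complex, 393 ± 116 and 239 ± 37.6 CPM (SD, n = 4 each). Their log2 fold changes were -0.81 (SE 0.28) and -0.72 (SE 0.23), and the groups of both genes overlapped. The collagen genes themselves lay on both sides of 0, from -0.21 (*Col3a1*, SE 0.62) to 0.43 (*Col1a1*, SE 0.73).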

How the data were processed

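RNA-Seq of 4 GDNF and 4 control tubuloid cultures was analysed, with groups taken from the sample titles. The libraries were poly-A selected and made with SMART-Seq v4. According to the study, each flow cell lane held 4 samples, and the lane of each culture is not given in the sources used here. An effect of lane was not tested. The authors mapped paired-end reads of 75 bases to mm10 (equivalent to GRCm38) with STAR, and the submitters' processing notes also name featureCounts and DESeq2. Versions and strand handling are not given in the sources used here. Each deposited table gives raw counts of reads for RefSeq transcripts, and a read that fits several transcripts appears in each. The deposited FPKM values are scaled by transcript length and total count and were not used for results. The TPM columns, which the authors scaled to one total per culture, were used as deposited.

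Counts were summed per symbol and tested over 16557 genes with edgeR 4.0.16 in R 4.3.3 (filterByExpr, TMM, glmQLFit, glmQLFTest, Benjamini-Hochberg). CPM values use the TMM factors. The steps were tested on simulated counts. The common dispersion corresponded to a variation of 36.8% between cultures. p-values measure the spread between these cultures. The study gives the RNA-Seq groups as 4 cultures each, and speaks of independent tubuloid populations only for a *Six2* level. How many mice the 8 cultures came from is not given in the sources used here, so the p-values may not cover the spread between mice.

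Members were named with their levels if they averaged 1 CPM or more. Those that also had an unadjusted p of 0.05 or less, groups without overlap, or one of the 8 highest mean TPM were given in every culture. Partner genes were named at 1 CPM and an unadjusted p of 0.05, and *Plat*, *Plg*, *Gzma*, *Gzmb*, *Col1a1*, *Col3a1*, *Lum*, *Krt8*, *Krt18*, *Cdh16*, *Pax8*, *Cd3e* and the neighbours of the chromosome 13 cluster were added after their values were seen. *Epcam*, *Cdh1* and *Dcn* were added in the same way. Markers were otherwise given as counts and sums. One member is not reported here on its own. The members and all lists were chosen with earlier results of these data known.

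Shared windows of a single transcript per member were counted against all GENCODE M21 transcripts. Of the 62 members, 61 were matched through RefSeq and 1 through its longest transcript. Alternatives were DESeq2 1.42.0, limma-voom 3.58.1, other normalizations and filters, a robust fit, a larger prior count, one transcript per gene, a covariate for *Xist* or Y-linked RNA, TPM in place of CPM, and leaving out each culture in turn.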

Additional observations from a re-analysis of the deposited data

Results flagged for a closer look

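In each group of 4 cultures, the highest and lowest values of the members with at least 1 CPM were compared with the others by Dixon's ratio, the gap to the nearest value over the group's range. Of 38 groups examined, 3 exceeded the 95% critical value, where chance gives about 1 in 20, or 1.9. *Serpinb2* was at 46.8 CPM in control culture 14, with the other controls between 7.48 and 13.3 CPM (ratio 0.851). *Serpinb9b* was at 5.28 CPM in GDNF culture 17, with the other GDNF cultures between 1.88 and 2.36 CPM (ratio 0.859). *Serping1* was at 61.0 CPM in GDNF culture 17, with the other GDNF cultures between 40.9 and 44.1 CPM (ratio 0.842).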

How the results depend on the processing

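*Serpinb9* and *Serpinb6a* kept a negative log2 fold change and an unadjusted p of 0.05 or less in all 19 alternatives, from -1.54 to -1.08 (adjusted p 0.00281 to 0.381) and from -0.85 to -0.50 (adjusted p 0.0183 to 0.381). With DESeq2, 2 members were called at an adjusted p of 0.05 (*Serpinb9* -1.37 and *Serpinb6a* -0.75), against 0 in edgeR and in every other alternative. *Serpinb9b* ranged from -2.52 to -1.07 and *Serpinb6b* from -1.43 to -0.61, and with limma-voom neither reached an unadjusted p of 0.05. The 4 members at an unadjusted p of 0.05 became 8 without a filter on low counts (50 members tested), 7 with the *Xist* or Y-linked covariate (6 lower and 1 higher) and 3 to 7 when each culture was left out, with 7 without control culture 21. The 14 partners at that p became 8 with library size only, 8 with limma-voom and 8 to 16 when each culture was left out, with 8 without GDNF culture 22 and 9 without GDNF culture 6 or 12. The 2 tested members without overlap became 0 in TPM of one transcript and 2 to 3 when each culture was left out. The median of the members ranged from -0.38 to -0.06 when each culture was left out and was 0.03 with library size only. The log2 fold change changed sign for *Serpine2* with library size only (0.10) and without GDNF culture 17 (0.02), for *Serpinf1* with library size only (0.05) and without control culture 14 (0.12), for *Serping1* without control culture 14 (0.15), and for *Serpinh1* without control culture 14 (0.00). When each culture was left out, these genes ranged from -0.25 to 0.02 (*Serpine2*), -0.38 to 0.12 (*Serpinf1*), -0.42 to 0.15 (*Serping1*) and -0.68 to 0.00 (*Serpinh1*). With library size only, all genes shifted to a median of 0.25. The cause of the other changes was not tested. Mean TPM summed over transcripts was 451 for *Serpinb6a* and 1200 for *Serpinh1*, since each has 4 transcripts that share reads. No paired analysis was possible because the groups share no culture number.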
